A study of Homo sapiens with 6 samples.

Results

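The 10 genes described here encode the alpha and beta tubulins that make up the microtubules of most cells, 7 beta isotypes (*TUBB*, *TUBB2A*, *TUBB2B*, *TUBB3*, *TUBB4A*, *TUBB4B* and *TUBB6*) and 3 alpha isotypes (*TUBA1A*, *TUBA1B* and *TUBA1C*). They were chosen by symbol, and all 10 were found among the 62710 gene rows analysed. Their mRNA was compared between parental H526 cells and onvansertib-resistant H526 cells, with 3 libraries in each group. H526 is a small cell lung cancer cell line, and both lines were kept in RPMI-1640 medium with fetal bovine serum. Onvansertib is an inhibitor of the mitotic kinase PLK1. The resistant cells were grown in onvansertib for 1 year while the concentration was raised from 10 nM to 75 nM, and total RNA of each line was isolated on 3 occasions. Parental libraries are numbered 1, 2 and 3, resistant ones 7, 8 and 9. As far as the labels say, they repeat the extraction from 1 parental and 1 resistant culture line, p-values measure the spread between these extractions, and the effect of onvansertib and that of 1 year of separate culture cannot be told apart. The labels do not say whether the drug was present at harvest.

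Alpha and beta tubulin form a dimer that polymerises into microtubules, the tracks of axons and cilia and the fibres of the mitotic spindle. Beta tubulin isotypes differ from each other mainly in a short, acidic tail at the end of the protein, which lies on the outer surface of the microtubule and is the site of polyglutamylation. *TUBB3* encodes the class III isotype, which in normal tissue is largely restricted to neurons and is widely used as a neuronal marker. Beta tubulin within the polymer is the binding site of paclitaxel, a drug that stabilises microtubules, and PLK1 acts on the spindle that these microtubules form. The response to paclitaxel was not measured in these libraries.

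The coding sequences show how close these genes are and where they part. The last 20 codons before the stop codon are given here for the beta isotypes, since most pairs differ more there than elsewhere, with the glutamate codons GAG and GAA in capitals. They were read 5′ to 3′ from the MANE Select transcripts of Gencode v44 on GRCh38, and each lies in exon 4 of its gene.
TUBB: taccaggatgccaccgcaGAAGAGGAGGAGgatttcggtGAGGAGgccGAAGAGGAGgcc
TUBB2A: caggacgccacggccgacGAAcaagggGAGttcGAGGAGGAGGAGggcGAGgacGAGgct
TUBB2B: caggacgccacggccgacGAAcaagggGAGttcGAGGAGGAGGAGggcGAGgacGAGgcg
TUBB3: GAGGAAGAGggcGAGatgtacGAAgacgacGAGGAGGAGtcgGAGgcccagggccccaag
TUBB4A: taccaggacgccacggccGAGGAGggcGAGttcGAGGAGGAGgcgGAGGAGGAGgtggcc
TUBB4B: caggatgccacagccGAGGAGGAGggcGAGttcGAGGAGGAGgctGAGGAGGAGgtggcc
TUBB6: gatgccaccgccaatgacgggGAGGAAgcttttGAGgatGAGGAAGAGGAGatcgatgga
The *TUBB3* stretch lies at chr16:89935742-89935801 on the plus strand. It holds 9 glutamate codons, as do those of *TUBB* and *TUBB4A*, against 10 in *TUBB4B* and 7 in *TUBB6*. Over these 60 bases *TUBB3* was between 48.5% and 58.1% identical to the other 6 beta isotypes in a global alignment, while over the rest of the coding sequence the same pairs were between 82.3% and 88.8% identical. *TUBB2A* and *TUBB2B* were 98.2% identical over the whole coding sequence, the highest value among the 21 beta pairs, and 98.3% identical in the last 60 bases.

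The alpha genes are closer to each other than most beta genes, with 95.9% to 97.2% identity in coding sequence over their 3 pairs. The start of the coding sequence matters for tubulin in another way. The factor TTC5 recognises the first residues of the growing chain when free tubulin triggers decay of tubulin mRNA. In their first 4 codons the 7 beta genes encode the same residues and differ only in the codons used. The first 4 codons were atgAGGGAGATC in *TUBB3* and *TUBB6*, atgAGGGAAATC in *TUBB* and *TUBB4B*, and atgCGTGAGTGC in all 3 alpha genes, with the codons after the start codon in capitals.

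Such likeness bears on how reads were divided between genes. Of the windows of 50 bases in the *TUBB2A* transcript, 59.5% also occurred in *TUBB2B*, and 37.5% of those of *TUBA1A* occurred in *TUBA1B*. In *TUBB6* only 1.10% of windows occurred in any other gene. Of the *TUBB3* windows 9.20% occurred in another of the 10 genes and 92.8% in ENSG00000198211, a read-through from the neighbouring gene, which was listed at 0 in all 6 libraries. The 50 annotated tubulin pseudogenes had a summed value of at most 24.7 in any library, 0.0127% of the sum of the 10 genes. The labels do not state whether the libraries kept the strand, so reads of a gene and of an antisense gene over it may not be separable. Of the *TUBA1B* windows 68.7% also occur in the antisense gene *TUBA1B-AS1*. That gene was between 3.58 and 14.9 in 5 libraries and at 76.4 in resistant library 8, against 64534 or more for *TUBA1B*. For *TUBA1C* 21.2% of windows occur in the antisense gene ENSG00000258232. This gene had higher values, between 652 and 1130 over the 6 libraries, against 7692 or more for *TUBA1C*. *MDC1* overlaps *TUBB* on the opposite strand. It was between 7190.7 and 8387 in parental and between 5790 and 6708 in resistant libraries, against 55986 or more for *TUBB*. Of the *TUBB* windows 32.7% occur in any other gene, and the part of *MDC1* in the *TUBB* values was not tested.

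The deposited values are gene counts normalized with DESeq2, so each is given as a normalized value, and a log2 fold change is resistant minus parental on the scale of log2(value + 1). All genes with a mean of at least 10 were tested with limma and Benjamini-Hochberg adjustment, and a gene was called at an adjusted p under 0.05. Of the 16347 genes tested 37.7% were called, 17.8% higher and 19.8% lower, so a call is common in this comparison. Depth, read from the value that 1 read is worth, lay between 22306620 and 28477736 reads per library, and none of the 10 genes is near the limit set by it, 3 reads or a value of 2.67 to 3.23. The tuft cell factor *POU2F3* was at 25809 ± 1178 and 27273 ± 536 (SD, n = 3) and was not called, but the other 5 of 6 tuft cell markers were, 3 higher and 2 lower, with log2 fold changes from -0.80 for *AVIL* to 1.77 for *TRPM5*. *YAP1* rose from 48.9 ± 6.86 to 111 ± 16.1, while the sum of 7 neuroendocrine markers was between 11396 and 12790 in parental and between 4310.4 and 5005 in resistant libraries. Leukocyte markers did not exceed a sum of 2.42, and 3 stromal markers summed to 137 to 190.4 in parental and 371 to 594 in resistant libraries. In bulk RNA fewer cells of a type and less RNA per cell cannot be told apart.

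Of the 10 tubulin genes, all were tested and 5 were called, 3 lower and 2 higher in resistant cells, against the 37.7% of all genes tested. *TUBB3* had by far the greatest change, a fall to 19.2% of the parental mean. *TUBA1A* fell to 61.3% and *TUBB2B* to 72.1%, while the low isotypes *TUBB4A* and *TUBB6* rose to 182% and 179%. The most abundant beta isotype, *TUBB*, and *TUBB2A*, *TUBB4B*, *TUBA1B* and *TUBA1C* did not pass the threshold. The median log2 fold change of the 10 genes was -0.07, and that of all genes tested was -0.00086. The groups did not overlap for 6 of the 10 genes, the 5 called ones and *TUBA1B*, against 49.9% of all genes tested. Of these 6, 4 were lower and 2 higher in resistant cells, where the shares over all genes were 25.9% and 24.0%.

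**Figure D1:**
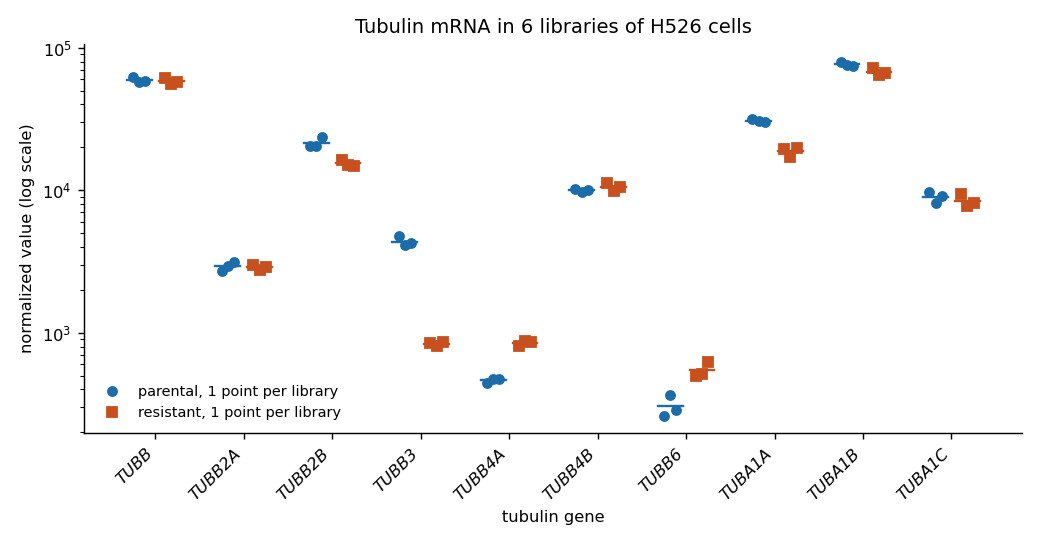
Normalized value of the 10 tubulin genes on a log axis, 1 point per library, with a short line at the mean of the 3 parental (circles) and the 3 resistant (squares) libraries. The *TUBB3* points of resistant cells lie between 811 and 858, far below the parental points, and those of *TUBB4A* and *TUBB6* lie above theirs.

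*TUBB3* (ENSG00000258947) lies on chromosome 16 of GRCh38 from 89921392 to 89938761, on the plus strand. Its value was 4738, 4100.3 and 4257 in parental libraries 1, 2 and 3 and 841, 811 and 858 in resistant libraries 7, 8 and 9. All resistant libraries were low and close to each other, with a coefficient of variation of 2.82%, and the groups were far apart. The log2 fold change was -2.38, with a 95% interval of -2.55 to -2.21 (limma, adjusted p = 4.3e-08). Only 2.05% of the genes tested had a larger absolute log2 fold change. A two-sided exact permutation test on its 6 values gave p = 0.10, the smallest that 3 libraries against 3 allow, and the same holds for each p of 0.10 below. Among the 50 tested genes nearest to *TUBB3* on chromosome 16 the median log2 fold change came to -0.09, with 15 genes called, 5 higher and 10 lower, fewer than the 37.7% over all genes would give. The neuroendocrine markers moved with *TUBB3*, with all 5 of the 7 that were tested called lower, against 19.8% of all genes, at log2 fold changes from -4.22 for *CHGA* to -0.48 for *NCAM1*. Their part in the *TUBB3* result was not tested.

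*TUBB2B* and *TUBB2A* are neighbours on the short arm of chromosome 6 and encode the class II isotypes, abundant in the developing brain. *TUBB2B* (ENSG00000137285, chromosome 6, 3223324 to 3231730, minus strand) was at 20433, 20272 and 23449.8 in parental and at 16307, 15061 and 14879 in resistant libraries. Its groups did not overlap, and the log2 fold change was -0.47 (95% interval -0.63 to -0.31, limma, adjusted p = 0.00063). *TUBB2A* (ENSG00000137267, chromosome 6, 3153497 to 3157544, minus strand) was at 2708, 2952 and 3118 in parental and at 2998, 2773 and 2889 in resistant libraries. These groups overlapped, with a log2 fold change of -0.02 and a 95% interval of -0.18 to 0.14. Since reads may be split between these near-identical genes with error, their sum was also tested, and it fell from 24311 ± 1955 to 18302 ± 869 (SD, n = 3), which is a log2 fold change of -0.41 (limma, adjusted p = 0.0013).

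*TUBB* encodes the class I isotype found in nearly all tissues and was the highest of the 7 beta genes. It lies on chromosome 6 from 30717435 to 30725538 (ENSG00000196230, plus strand). Its value was 62626, 57891 and 58061 in parental and 61362, 55986 and 57004 in resistant libraries, so the groups overlapped, with 1 resistant library inside the parental range and the others just below it. The 95% interval of its log2 fold change was -0.18 to 0.11 (limma, adjusted p = 0.70). *TUBB4B* (ENSG00000188229, chromosome 9, 137241287 to 137243707, plus strand), a class IV isotype of broad expression, was between 9753 and 10192 in parental and between 9876 and 11289 in resistant libraries. The groups overlapped, the log2 fold change was 0.07, and its 95% interval was -0.07 to 0.21. With quantile normalization *TUBB4B* was called, at a log2 fold change of 0.22 (limma, adjusted p = 0.011).

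The 2 beta isotypes that rose were the least abundant. *TUBB4A* encodes the other class IV isotype, best known from brain and oligodendrocytes, and lies on chromosome 19 from 6494319 to 6502848 (ENSG00000104833, minus strand). It was at 447, 471 and 477 in parental and at 809, 874 and 855 in resistant libraries. The groups were well apart, with a log2 fold change of 0.86 (95% interval 0.66 to 1.06, limma, adjusted p = 5.8e-05). *TUBB6* encodes the class V isotype and lies on chromosome 18 from 12307669 to 12344320 (ENSG00000176014, plus strand). It was at 262, 363 and 288 in parental and at 499.6, 509 and 626 in resistant libraries. *TUBB6* varied more between libraries than any other of the 10 genes, with a coefficient of variation of 17.1% in parental and 12.9% in resistant cells. Its groups still did not overlap, and the log2 fold change was 0.84 (95% interval 0.52 to 1.17, limma, adjusted p = 0.0014). *AFG3L2* overlaps *TUBB6* on the opposite strand and encodes a mitochondrial protease. Its value was between 1476 and 1825 in parental and between 1869.5 and 2075 in resistant libraries. Of the *TUBB6* transcript windows of 50 bases, 1.1% occurred in any other gene on either strand. The part of *AFG3L2* in the *TUBB6* values was not tested.

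The 3 alpha genes lie side by side on chromosome 12, and *TUBA1A* and *TUBA1C* overlap on opposite strands. *TUBA1A*, the main alpha isotype of postmitotic neurons (ENSG00000167552, 49184686 to 49189080, minus strand), was at 31396, 30820.3 and 29874 in parental and at 19614, 17132 and 19682 in resistant libraries. Every resistant value lay far under every parental one, with a log2 fold change of -0.71 (95% interval -0.86 to -0.56, limma, adjusted p = 3.3e-05). *TUBA1B* (ENSG00000123416, 49127782 to 49131397, minus strand), the ubiquitous alpha isotype and the highest of all 10 genes, was at 79796, 75488 and 73883 in parental and at 72043, 64534 and 65928 in resistant libraries. The groups did not overlap but lay close, with a log2 fold change of -0.18 (limma, adjusted p = 0.052), just outside the threshold. It was called without resistant library 7, at a log2 fold change of -0.23 (limma, adjusted p = 0.042), and also with TMM scaling and with a pseudocount of 0.1. *TUBA1C* (ENSG00000167553, 49188736 to 49274600, plus strand) was between 8140.0 and 9706 in parental and between 7692 and 9394 in resistant libraries, with a 95% interval of its log2 fold change from -0.29 to 0.10. The 50 nearest tested genes were shared by the 3 alpha genes to a large part, and their median log2 fold change was 0.05 in each case. Summed over the 3 genes, the value fell from 116075 ± 4250.0 to 94720.2 ± 5906 (SD, n = 3), which is a log2 fold change of -0.29 (limma, adjusted p = 0.0061).

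**Figure D2:**
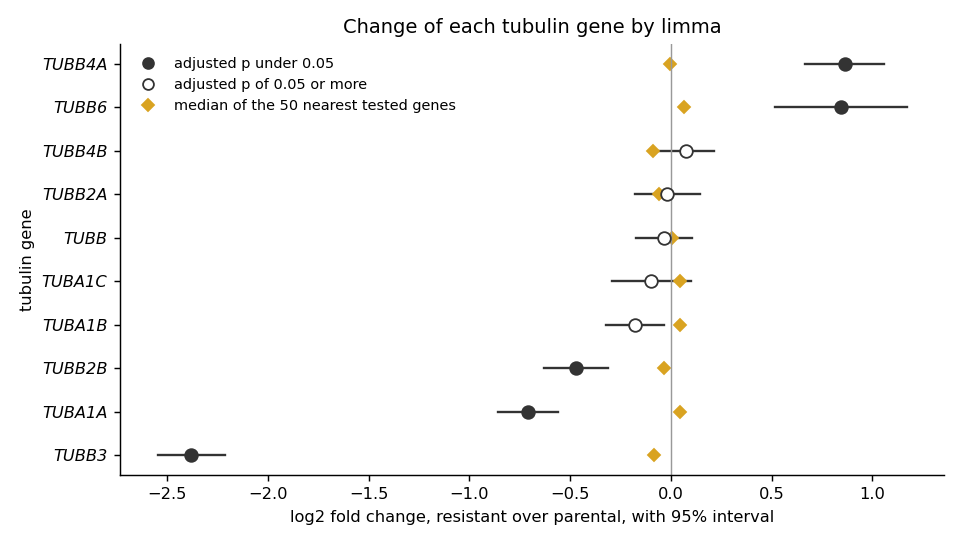
Log2 fold change of each tubulin gene, resistant over parental, with its 95% interval by limma (bars), filled circles for an adjusted p under 0.05 and open circles for others. Diamonds mark the median log2 fold change of the 50 tested genes nearest on the chromosome, which stays between -0.09 and 0.07 while *TUBB3* stands at -2.38.

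To compare isotypes with each other, each value was divided by the length of the MANE Select transcript, which gives a normalized value per kb. On this scale the order in parental cells was *TUBA1B*, *TUBB*, *TUBA1A*, *TUBB2B*, *TUBB4B*, *TUBA1C*, *TUBB3*, *TUBB2A*, *TUBB4A* and *TUBB6*. The levels ran from 45410.4 to 49045 per kb for *TUBA1B* down to 140 to 193 per kb for *TUBB6*, and no gene's range overlapped that of the next in order. In resistant cells the order was the same but for *TUBB3*, which stood below *TUBB2A*, and again no neighbours overlapped. *TUBB3* was 1.41 times as high as *TUBB2A* per kb in parental cells, while in resistant cells *TUBB2A* was 3.64 times as high as *TUBB3*. *TUBB4A* per kb was at 0.0802 ± 0.0084 of the *TUBB3* level in parental and at 0.758 ± 0.0442 in resistant cells (SD, n = 3).

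As shares of the beta tubulin sum per kb, *TUBB3* made up 5.93%, 5.41% and 5.36% in parental libraries 1, 2 and 3 and 1.14%, 1.21% and 1.25% in resistant libraries 7, 8 and 9. The share decreased by 4.36 percentage points, from 5.57% ± 0.31 to 1.20% ± 0.06 (SD, n = 3, exact two-sided permutation p = 0.10). *TUBB2B* also took a smaller share, 24.2% ± 1.81 in parental and 19.7% ± 0.33 in resistant cells. *TUBB* made up 51.5% ± 1.79 and 56.6% ± 0.09, and *TUBB4B* 13.9% ± 0.08 and 16.5% ± 0.37 (SD, n = 3 in each group). *TUBB2A* stood at 3.94% ± 0.32 and 4.38% ± 0.08. *TUBB4A* went from 0.445% ± 0.024 to 0.913% ± 0.079 and *TUBB6* from 0.354% ± 0.071 to 0.713% ± 0.108. With the MANE Select lengths, parental and resistant libraries were separate in all 7 shares, each with an exact two-sided permutation p of 0.10. Shares of a sum move against each other, and the value of *TUBB* itself did not pass the test. With *TUBB3* left out of the sum, the share of *TUBB* was still higher by 2.74 percentage points and that of *TUBB2B* changed by -5.75, while *TUBB2A* no longer separated the groups (exact permutation p = 0.20).

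**Figure D3:**
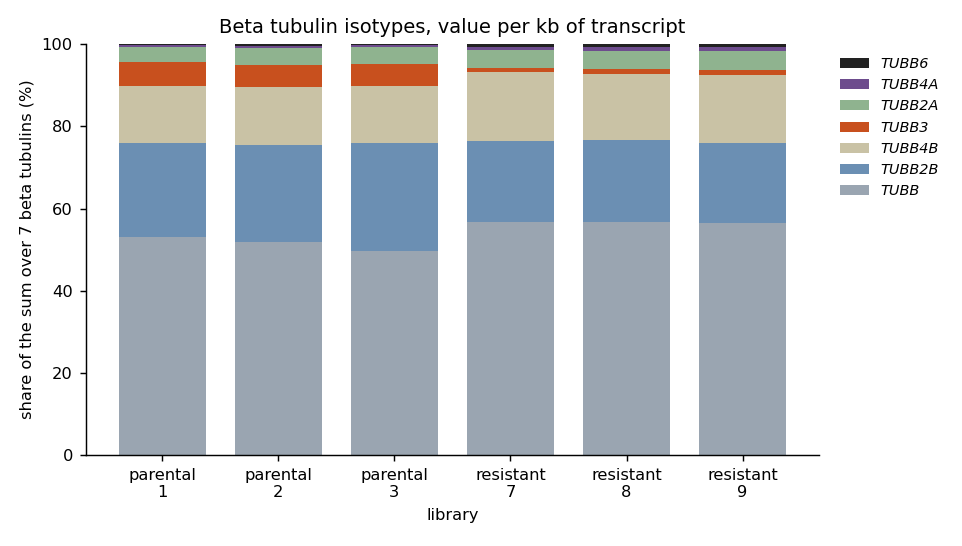
Share of each of the 7 beta tubulin genes in their sum, in percent of the normalized values per kb, with 1 stacked bar for each of the 3 parental and 3 resistant libraries. The *TUBB3* band narrows from 5.36% to 5.93% in parental bars to 1.14% to 1.25% in resistant bars, and *TUBB* is the widest band in all 6.

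The length used sets the size of such a share. The longest annotated transcript of every gene was also used in place of the MANE Select one, which takes *TUBB3* from 1706 to 5062 bases. With these lengths the *TUBB3* share decreased by 2.24 percentage points, and with no division by length it decreased by 3.47. The gain in the share of *TUBB* was 5.10 percentage points with the MANE Select lengths and 3.0 with the longest ones, and that of *TUBB4B* was 2.57 and, with no division by length, 1.70. For *TUBB2A* a gain of 0.434 became 0.233 with the longest lengths, 0.279 with no division and 0.250 without parental library 1. Its exact permutation p rose to 0.20 with the longest lengths. Without resistant library 7, 8 or 9 that p was 0.20, 0.20 and 0.30, and it stayed at 0.10 without any 1 parental library. The order also depends on it. With the longest lengths *TUBB2A* was 1.31 times as high as *TUBB3* per kb already in parental cells, and in resistant cells *TUBB3* was the lowest of the 10 genes and *TUBB4B* stood above *TUBB2B*. Ratios within a library do not depend on length for their change. The ratio of *TUBB3* to *TUBB* changed by -2.35 on the log2 scale and that of *TUBB3* to *TUBB2B* by -1.91. The ratio of *TUBA1A* to *TUBA1B* changed by -0.53, from 0.391 ± 0.0075 to 0.271 ± 0.0170 per kb (SD, n = 3). None of these 3 ratios overlapped between the groups (exact two-sided permutation p = 0.10 for each, or 0.11 after Benjamini-Hochberg adjustment over the 10 ratios computed). The ratio of *TUBA1C* to *TUBA1B* overlapped (exact permutation p = 0.40).

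The sum over the 7 beta genes per kb was lower in resistant cells, 40812 ± 2004 against 45936 ± 1309 (SD, n = 3), or 88.8% of the parental sum. The groups did not overlap (exact two-sided permutation p = 0.10), but with the longest transcripts the log2 ratio of the sums went from -0.17 to -0.11 (exact permutation p = 0.20). Without *TUBB3* the beta sum was at 93.0% of the parental one, and the groups overlapped (exact permutation p = 0.20). The alpha sum was at 81.3% of the parental one, 55717 ± 3384 against 68494 ± 2470.2 per kb (SD, n = 3, exact permutation p = 0.10). The ratio of the alpha sum to the beta sum was 1.49 ± 0.05 in parental and 1.36 ± 0.02 in resistant cells (SD, n = 3, exact permutation p = 0.10). The 10 genes together took between 0.844% and 0.876% of all values in parental and between 0.741% and 0.801% in resistant libraries.

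The genes whose pattern over the 6 libraries was nearest to that of *TUBB3*, by Euclidean distance of log2(value + 1) after centring each gene on its own mean, were ENSG00000269155, *TBC1D30*, *INSM1*, *MANEAL* and *CADM3*. Their distances were between 0.271 and 0.390 and their log2 fold changes between -2.68 and -2.11. *INSM1*, a zinc finger factor of neuroendocrine cells, was at 6729, 5918 and 5626 in parental and at 1191, 1385 and 1183 in resistant libraries. Parental library 1 was the highest of its group for both *INSM1* and *TUBB3*, but resistant library 8 was the highest of its group for *INSM1* and the lowest for *TUBB3*. *CADM3*, a cell adhesion molecule of neurons, was at 700.0 ± 70.4 and 108 ± 1.55 (SD, n = 3), and *TBC1D30*, which activates the GTPase of a RAB protein, at 726 ± 94.0 and 132 ± 11.7. These genes were picked for their likeness, so their values are a description.

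Of 14 other tubulin genes, 7 were high enough to be tested and 2 were called, both higher, or 28.6% against 37.7% over all genes. The median log2 fold change of the 7 was 0.06. *TUBA4A*, an alpha isotype with its own gene on chromosome 2, rose from 424 ± 32.1 to 886 ± 69.3 (SD, n = 3), which is a log2 fold change of 1.06 (limma, adjusted p = 3.8e-05). *TUBG2*, a gamma tubulin, rose from 702 ± 75.7 to 1164 ± 84.3, while its more abundant paralog *TUBG1*, which nucleates microtubules at the centrosome, had a log2 fold change of 0.06 (adjusted p = 0.46). Delta tubulin *TUBD1* and epsilon tubulin *TUBE1*, both of centrioles, had log2 fold changes of -0.03 and 0.32 (adjusted p = 0.84 and 0.077). *TUBB1*, the isotype of platelets, was at 13.9 ± 1.65 and 8.11 ± 2.37 and *TUBA8* at 15.7 ± 11.4 and 10.8 ± 4.18 (SD, n = 3), neither past the threshold. *TUBB8*, *TUBA3E* and *TUBA4B* were listed at 0 in all 6 libraries, and *TUBB8B*, *TUBA3C*, *TUBA3D* and *TUBAL3* had means under 2 in both groups.

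New tubulin is folded by prefoldin and the CCT chaperonin and joined into dimers by the cofactors TBCA to TBCE with ARL2. All 21 genes of this list were tested and 12 were called, 10 lower and 2 higher, a share of 57.1% against 37.7% over all genes. The median log2 fold change of the 21 was -0.19. The chaperonin subunit *CCT5* fell from 13568 ± 815 to 7339 ± 455 and the prefoldin subunit *PFDN5* from 2342 ± 82.2 to 1376 ± 70.6 (SD, n = 3). *TBCB*, the cofactor that binds alpha tubulin, fell from 5343 ± 92.6 to 3251 ± 60.8 and was also called lower, as were *TBCA*, *TBCC* and *ARL2*, but *TBCD* and *TBCE* did not pass the threshold. The called genes that rose were *CCT8*, from 8808 ± 676 to 16278 ± 929, and the prefoldin subunit *PFDN1*, from 2166 ± 164 to 2803 ± 275 (SD, n = 3). The chaperonin subunits *CCT3*, *CCT4* and *CCT7* did not pass the threshold. *CCT8*, *CCT5* and *PFDN5* lie on chromosomes 21, 5 and 12, and the part of their chromosome neighbours in these changes was not tested. Of the factors through which tubulin mRNA is degraded when free tubulin is abundant, *TTC5* and *CNOT11* had log2 fold changes of -0.06 and 0.05 and did not pass the threshold. *SCAPER*, which links TTC5 to the CCR4-NOT deadenylase, rose from 798 ± 94.7 to 1334 ± 134 (SD, n = 3, limma, adjusted p = 0.00048).

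Enzymes that modify tubulin showed no common direction. Of 30 genes 24 were tested and 10 were called, 5 higher and 5 lower, which is 41.7% and near the 37.7% over all genes, and the median log2 fold change of the 24 was 0.09. *VASH1*, a carboxypeptidase that removes the last tyrosine of alpha tubulin, rose from 546 ± 135 to 957 ± 187. Its partner *SVBP* fell from 490.1 ± 47.4 to 374 ± 20.7, and *TTL*, the ligase that puts the tyrosine back, from 1381 ± 178 to 1037 ± 98.6 (SD, n = 3, adjusted p between 0.0058 and 0.022 by limma). In the same list *MATCAP1* fell from 800 ± 80.2 to 592 ± 98.1 (SD, n = 3, limma, adjusted p = 0.025). *VASH2* had a log2 fold change of 0.09 and did not pass the threshold. *TTLL1*, the catalytic subunit of a polyglutamylase that adds glutamate chains to tubulin tails, rose from 91.2 ± 9.15 to 162 ± 21.6, and *TPGS1*, another subunit of this enzyme, fell from 607 ± 67.7 to 478 ± 25.4. *TPGS2* was also called lower, at a log2 fold change of -0.28 (limma, adjusted p = 0.016). *TTLL2*, at 17.0 ± 5.73 and 39.6 ± 10.0 (SD, n = 3), had the largest absolute log2 fold change of the called genes in this list, 1.20.

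Proteins that bind or cut microtubules passed the threshold in 9 of 33 tested genes, 4 higher and 5 lower, or 27.3%, below the share over all genes. *MAP2*, which binds microtubules in dendrites, fell from 479 ± 38.2 (SD, n = 3) in parental cells to 178, 217 and 205 in the resistant libraries, with a log2 fold change of -1.26. *MAPRE3*, a plus-end binding protein enriched in neurons, fell from 295 ± 9.26 to 178 ± 10.9, and *EML2* rose from 643 ± 147 to 973 ± 96.8. Tau, encoded by *MAPT*, had a log2 fold change of 0.24 (limma, adjusted p = 0.097), and *DCX* did not exceed a value of 1.37 in any library. In the ring complex of gamma tubulin, from which microtubules grow, 5 of 11 genes were called, 2 higher and 3 lower, or 45.5% against 37.7% over all genes, and *TUBG2* is counted both here and among the other tubulins. *TUBGCP5* rose from 656 ± 5.05 to 1189 ± 95.4, and *MZT2B*, close in sequence to *MZT2A*, fell from 3909 ± 438 to 2495 ± 163 (SD, n = 3).

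**Figure D4:**
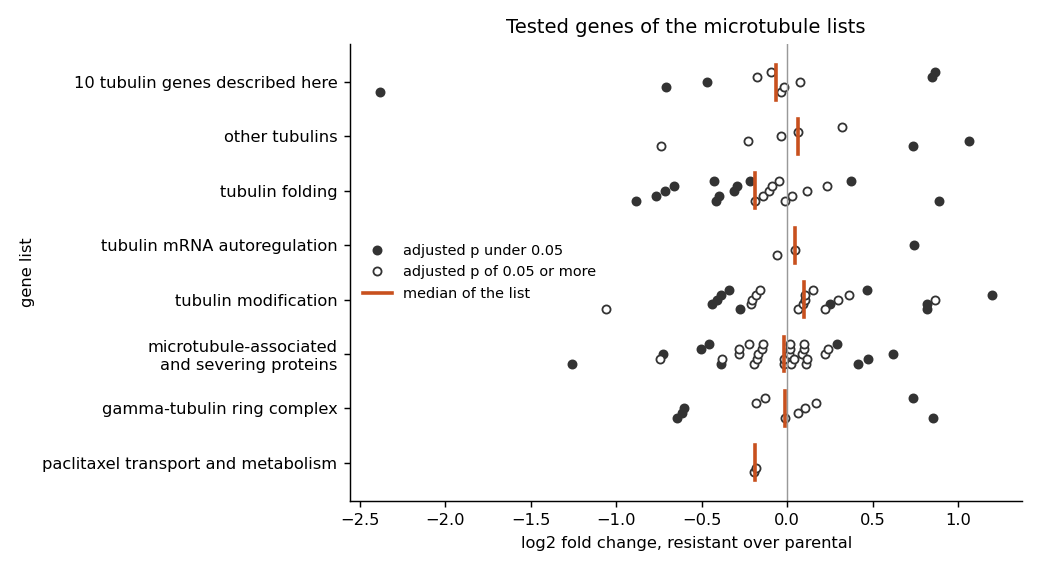
Log2 fold change, resistant over parental, of every tested gene in the 10 tubulin genes and in 7 lists of microtubule genes, 1 circle per gene, filled for an adjusted p under 0.05 by limma, with a vertical line at each list's median. The folding list has its median at -0.19, *TUBB3* is the point farthest to the left at -2.38, and circles within a list are offset up and down only to keep them apart.

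For the genes that move or metabolise paclitaxel, 2 of 6 could be tested, and limma called 0 of them, against 37.7% over all genes. At an unadjusted p under 0.05 the count was also 0. With only 2 genes tested, this count cannot be told apart from the share over all genes. *ABCB1*, the efflux pump best known for taxane resistance, was listed at 0 in all 6 libraries, which allows up to 3 reads per library and covers counting error only. *SLCO1B3*, an uptake transporter, and *CYP2C8*, the main enzyme of paclitaxel breakdown, were also listed at 0 in all 6. *CYP3A4* was at 3.42, 10.4 and 2.89 in parental and at 6.33, 0 and 0 in resistant libraries, too low to be tested. The transporter *ABCC1* was at 1943 ± 237 and 1691 ± 153 (SD, n = 3), or -0.20 as log2 fold change (limma, adjusted p = 0.15), and *ABCC10* had one of -0.18 (adjusted p = 0.41).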

How the data were processed

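The deposited table holds 1 normalized signal for each gene in each of 6 libraries. Per the labels and the study's methods, the authors trimmed reads with Trimmomatic 0.38, aligned and quantified them with RSEM 1.3.1 on GRCh38 with Gencode annotation, and normalized gene counts with DESeq2 1.30.0, with replicates kept apart. The signal is not divided by gene length. Between 48.3% and 63.9% of values under 10 lay within 2% of a whole multiple of the commonest step, so whole reads could not be regained and tests for counts were left out. Depth was the sum of values over that step.

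Of 62757 rows, 47 second copies of pseudoautosomal genes were left out, and 62639 of the remaining 62710 were matched to Gencode v44 symbols without the identifier's version. Genes with a mean of at least 10 (16347) entered limma 3.58.1 in R 4.3.3 as log2(value + 1), with an intensity trend and condition as the only term. The fit was tested on simulated data. Single values were compared by an exact two-sided permutation test with Python 3.11.15. Lengths were those of MANE Select transcripts, and alignments used Biopython 1.88.

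The tubulin genes and the other lists were chosen with earlier results of these data known. Named genes were the 10 tubulins, the 5 nearest to *TUBB3*, the other tubulins, markers, overlapping genes and the 3 largest called changes of each other list, and the further genes named from these lists were chosen after their values were seen. The settings varied were the scaling (TMM or quantile), the pseudocount (0.1 or 10), the filter (none, or a mean of 50), the trend (none), each library left out in turn, other lengths, summed near-identical genes, and subtraction of the median of 50 neighbours. Some items are not reported here.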

Additional observations from a re-analysis of the deposited data

How the results depend on the processing

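The 5 called tubulin genes kept their direction and their call under all 13 alternatives of the fit across genes, and the number of called tubulin genes was 5 or 6. Over the alternatives the log2 fold change of *TUBB3* stayed between -2.42 and -2.29, the latter after subtracting the median of the 50 nearest tested genes, which moved it by more than the spread between libraries. *TUBB*, *TUBB2A* and *TUBA1C*, none of them called, changed sign with quantile normalization, to log2 fold changes of 0.00035, 0.035 and 0.024. *TUBB* also did so without parental library 1 (0.0024), and *TUBB2A* without parental library 3 (0.029) and without resistant library 8 (0.011). With 1 library left out, the log2 fold change of *TUBB* ranged from -0.074 to 0.0024 and that of *TUBB2A* from -0.072 to 0.029. *TUBA1B* was called under 3 of the 13 alternatives, and summing near-identical genes gave a called fall for both sums. The number of called genes over all genes tested lay between 4784 and 6228. The cause of these shifts was not tested. The change in the *TUBB3* share lay between -4.47 and -2.24 percentage points. Most of that range came from the choice of lengths, which was changed for all beta genes at once. With 3 libraries a group, no exact test of a share or sum could pass 0.05. No paired analysis was made. The study calls the parental and resistant cells matched, but the labels do not say which parental extraction belongs with which resistant one.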
